A study of Mus musculus with 7 samples.

Results

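The 10 genes described here, Tfap2c, Nanos3, Dppa3, Kit, Stra8, Sycp1, Sycp3, Dazl, Ddx4 and Mael, are genes of the germ line and of the entry into meiosis. They were chosen by name as germ cell genes that stem cells express, and all 10 were found among the 30590 rows of 1 expression table. The samples were cultures of a mouse embryonic stem cell line that the labels name Bry-GFP. Day 0 cells were kept on mouse embryonic fibroblast feeders in medium with 15% FBS and LIF at 1000 U/mL, and 2 libraries were made. Day 2 cells had been taken off the feeders and held without serum, in suspension at 75000 cells per mL for 48 hours, as embryoid bodies (2 libraries). Day 4 cells had then spent 48 hours with 150 ng/mL Noggin, an antagonist of bone morphogenetic proteins (BMPs), 25 ng/mL Wnt3a and 9 ng/mL Activin A, a step meant to induce primitive streak (2 libraries). Day 6 cells had then been held with bFGF at 10 ng/mL for a further 48 hours (1 library). All groups come from the same line, and the culture step changes together with the day, so time, medium and added factors cannot be told apart. The labels call the replicates biological. Whether this means separate cultures is unknown, and a p-value then measures only the spread between these libraries.

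In the mouse embryo, primordial germ cells arise from epiblast cells that receive BMP signals, and transcription factors among them Prdm1, Prdm14 and Tfap2c set up their programme. Germ cells later switch on genes of meiosis, for which retinoic acid is an inducer and Stra8 a key regulator, together with RNA-binding proteins and a small-RNA pathway that silences transposons. Cultured stem cells transcribe some of these genes, while DNA methylation and a repressor complex with Mga, Max, Pcgf6, E2f6 and L3mbtl2 are known to hold many of them down.

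The values are levels, that is log2 of 1 plus the scaled number of reads of a gene. Read counts were not given, and the level that 3 reads would give was inferred from the commonest low values of each library. It lay between 1.45 and 2.30 in the 7 libraries, and a level under it is close to the counting limit. Values above 0 but under the level inferred for 1 read also occur, so the values are not whole reads throughout. Differences between days were tested with limma over all 21813 genes with a value above 0, with Benjamini-Hochberg adjusted p-values and a threshold of 0.05. The spread has 3 residual degrees of freedom. Fold changes keep the added 1 and are therefore too small for genes with few reads. In bulk samples, fewer cells of a type and less RNA per cell cannot be told apart.

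Of the 10 genes, Tfap2c and Ddx4 fell between day 0 and day 4, Tfap2c and Stra8 fell between day 2 and day 4, and Stra8 rose between day 0 and day 2. Over all genes, 2.13% fell between day 2 and day 4 and 5.76% rose between day 0 and day 2. Stra8 was low on day 0. A fall from the day 0 level by day 4 passed for Tfap2c and Ddx4 among the 10, where 10.4% of all genes fell. Ddx4 stayed above the level of 3 reads on day 4, and its call held in 1 of 7 fits that left out 1 library each. The calls of Stra8 and that of Tfap2c from day 2 to day 4 were likewise lost without any 1 library of days 0, 2 and 4. The call of Tfap2c from day 0 to day 4 was lost in some of these fits. Sycp1, Sycp3 and Kit had day 4 means above those of day 0. The levels in every library are plotted by day.

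**Figure D1:**
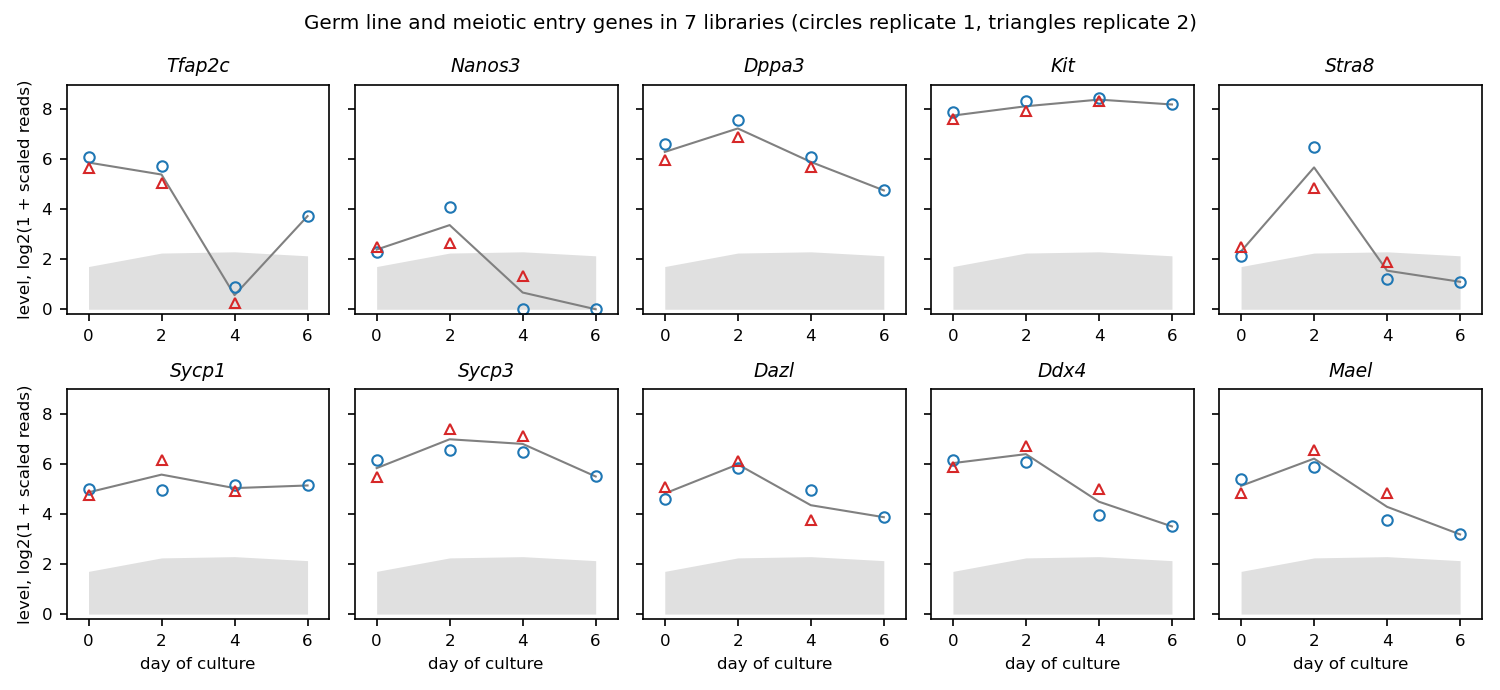
Level (log2 of 1 plus scaled reads) of the 10 genes against the day of culture, with 1 circle or triangle per library, a line through the daily means and the range under the highest 3-read level of each day in grey. Tfap2c was in the grey range on day 4 and above it on days 0, 2 and 6, and Stra8 stood out on day 2.

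Tfap2c encodes the transcription factor AP-2 gamma, which acts in primordial germ cells, in naive stem cells and in trophoblast. It lies at chr2:172549593-172558622 on the plus strand of GRCm38. Its level was 6.08 and 5.67 (day 0), 5.73 and 5.06 (day 2), 0.88 and 0.25 (day 4) and 3.73 (day 6). Both day 4 libraries were under the level of 3 reads and far under every other library, with no overlap. The change from day 0 to day 4 was -5.31 with a standard error of 0.44 (limma, adjusted p = 0.000683), and from day 2 to day 4 it was -4.83 with the same standard error (adjusted p = 0.00871). In scaled reads the mean was 58.3 (day 0), 42.2 (day 2) and 0.515 (day 4), and with the day 4 level of 3 reads in its place the mean was 18.1-fold lower than on day 0 and 13.1-fold lower than on day 2. The day 6 library was higher than day 4 by 3.16 with a standard error of 0.54 (limma, adjusted p = 0.0338).

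Genes under the 3-read level in both libraries of day 4 and above it in all 5 others were counted, a pattern taken from Tfap2c. There were 41 such genes of 21813, 5 of them with a mean of at least 5 in the other libraries, and Tfap2c is 1 of the 41. With day 0 or day 2 in place of day 4, 105 and 56 genes had this pattern. The counts are a description and no test of Tfap2c. The fall from day 0 kept an adjusted p under 0.05 in 4 of 7 fits that left out 1 library each. It was 0.0524 and 0.0530 without day 0 replicate 1 or 2 and 0.0502 without day 4 replicate 1, at changes of -5.10, -5.52 and -5.63.

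The other AP-2 genes took other courses. Tfap2b rose from 2.52 and 1.83 on day 0 to 4.89 and 4.48 on day 2, and stood at 7.0 and 6.02 on day 4 and 5.97 on day 6. That was a change of 2.51 by day 2 and 4.33 by day 4 against day 0 (limma, adjusted p = 0.0173 and 0.00145). Tfap2a was at 3.08 and 2.38, 3.04 and 2.42, 4.77 and 3.24, and 4.38 in the same order, and none of its comparisons passed. Tfap2d and Tfap2e were at 2.28 or lower in every library. Tfap2c was thus the member of its family that was lower on day 4 by the test, while Tfap2b was higher.

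Nanos3 encodes an RNA-binding protein that protects primordial germ cells from cell death. It lies at chr8:84173731-84185217 on the minus strand and overlaps the microRNA genes Mir181c and Mir181d on the same strand, so reads of the 3 cannot be fully told apart. Levels were 2.28 and 2.50 on day 0 and 4.10 and 2.64 on day 2. On day 4 it was listed at 0 and at 1.34, and on day 6 it was listed at 0. The day 4 libraries were below all those of days 0 and 2, but the change of -2.70 from day 2 and of -1.72 from day 0 missed the threshold (limma, adjusted p = 0.0995 and 0.154). An exact 0 in this table need not mean that a gene was silent, since Gapdh, which every cell uses, was listed at 0 on day 6. In the libraries of days 0, 2 and 4 Gapdh was at 6.19, 7.13, 1.85, 3.44, 3.51 and 7.08. Why Nanos3 was listed at 0 was not tested.

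Dppa3, also called Stella, protects the maternal genome from demethylation in the zygote and marks primordial germ cells and naive stem cells. It lies at chr6:122626410-122630272 on the plus strand, in a cluster with Apobec1, Gdf3, Nanog and Slc2a3. Its level was 6.61 and 5.99 (day 0), 7.58 and 6.90 (day 2), 6.10 and 5.70 (day 4) and 4.76 (day 6). Day 2 was the high point, day 4 overlapped with day 0, and the single day 6 library was the lowest. Over all days the difference passed (limma F test, adjusted p = 0.0211), whereas the change of -1.34 from day 2 to day 4 did not (limma, adjusted p = 0.0848) and that from day 0 to day 4 was -0.40 (limma, adjusted p = 0.464).

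Within this cluster, Gdf3, a TGF-beta family ligand, fell by 2.26 from day 0 to day 4, from 7.95 in both libraries to 5.53 and 5.85 (limma, adjusted p = 0.000811). Apobec1, an RNA-editing cytidine deaminase, fell by 1.57 (adjusted p = 0.0100) and the pluripotency factor Nanog fell by 0.71 (adjusted p = 0.0120). Slc2a3, a glucose transporter, rose by 0.89 (adjusted p = 0.0144). Dppa3 was thus the 1 gene of the 5 in the cluster that did not pass between day 0 and day 4. From day 4 to day 6, Nanog fell by 2.15 and Gdf3 fell by 1.79 (limma, adjusted p = 0.00815 and 0.0222), and Dppa3 changed by -1.14 (adjusted p = 0.149). In 6 fits without 1 library of days 0, 2 or 4, the day 6 call of Gdf3 held in 0 (adjusted p = 0.0520 to 0.168) and that of Nanog in 2.

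Kit encodes the receptor tyrosine kinase for stem cell factor, which germ cells, blood progenitors and melanoblasts need. It lies at chr5:75574916-75656722 on the plus strand, between Pdgfra and Kdr. Levels were 7.88 and 7.63 (day 0), 8.34 and 7.92 (day 2), 8.45 and 8.34 (day 4) and 8.20 (day 6). The day 4 libraries were above both of day 0, by a mean of 0.63 with a standard error of 0.19 (limma, adjusted p = 0.0563). With a filter on low values the same change had an adjusted p of 0.0296, so the call depends on which genes are tested with it.

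Kitl, which encodes stem cell factor, moved the other way, from 6.91 and 7.19 on day 0 to 6.19 and 5.96 on day 4, and fell by 0.97 (limma, adjusted p = 0.0174). On day 2 it was at 6.56 and 6.54, and the day 6 library gave 7.02. Pdgfra, a receptor kinase that fibroblasts also express, fell by 3.10 by day 4 (adjusted p = 0.00196). Kdr, the VEGF receptor 2, had day 0 levels of 3.94 and 4.39 and day 4 levels of 4.08 and 4.06 (adjusted p = 0.935). Kit thus did not share the course of its neighbour Pdgfra or of its ligand.

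**Figure D2:**
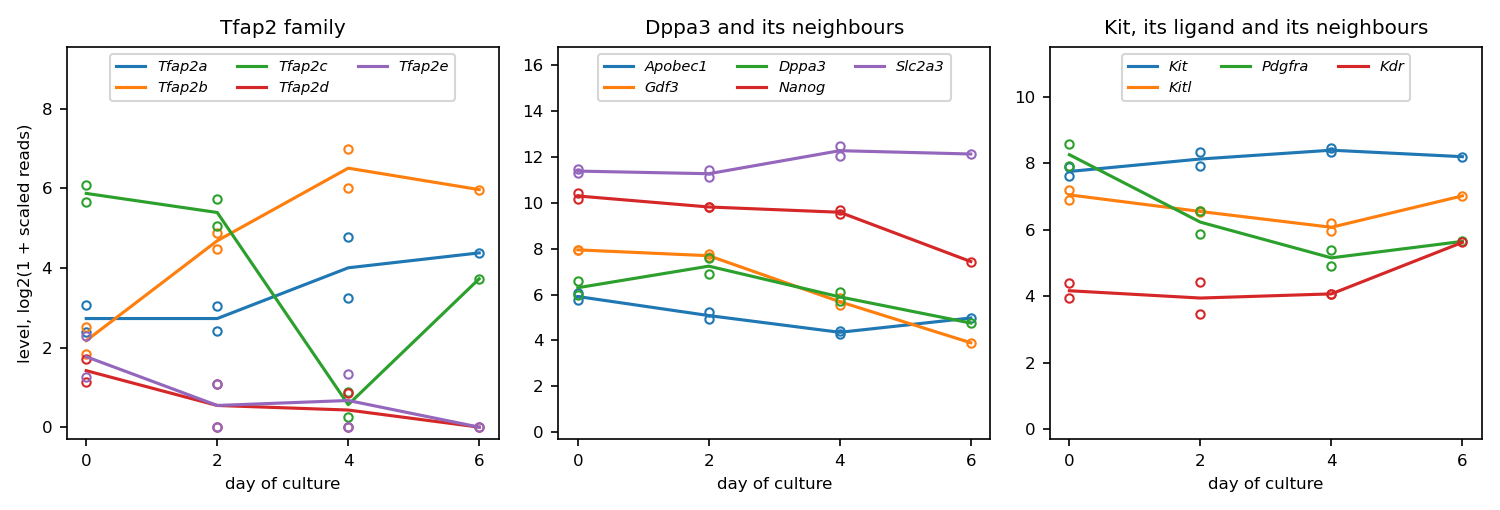
Level (log2 of 1 plus scaled reads) by day for the Tfap2 family, for Dppa3 with the genes of its cluster and for Kit with its ligand and neighbours, with 1 circle per library and lines through the daily means. Tfap2b was at 7.0 and 6.02 on day 4, where Tfap2c was at 0.88 and 0.25.

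Stra8 encodes a protein that germ cells switch on in response to retinoic acid and that drives the meiotic programme. It lies at chr6:34920163-34939344 on the plus strand. Its level was 2.14 and 2.50 (day 0), 6.51 and 4.85 (day 2), 1.20 and 1.89 (day 4) and 1.10 (day 6). Day 2 was high in both libraries, which differed from each other by more than those of the other days, and days 4 and 6 were near or under the level of 3 reads. The rise from day 0 to day 2 was 3.36 with a standard error of 0.65, 10.3-fold (limma, adjusted p = 0.0226). Between day 2 and day 4 it fell by 4.14 (limma, adjusted p = 0.0284), from a mean of 59.0 scaled reads to 2.00, and against day 0 the day 4 change was -0.78 (adjusted p = 0.465). Without any 1 of the 6 libraries of days 0, 2 and 4 the rise missed the threshold, at changes of 2.53 to 4.19 and adjusted p-values of 0.0534 to 0.231.

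Other genes linked to retinoic acid were measured beside Stra8. Of 16 listed genes, 5 rose and 1 fell between day 0 and day 2, and 6 rose and 2 fell between day 0 and day 4. Over all genes, 5.76% rose and 6.2% fell by day 2, and 11.3% rose and 10.4% fell by day 4. Crabp1, a cytoplasmic retinoic acid-binding protein, rose from 7.34 and 7.21 to 11.32 and 10.44 on day 2, and was at 11.78 and 11.29 on day 4. Cyp26b1, an enzyme that breaks down retinoic acid, was at 3.77 and 4.31 (day 0), 6.48 and 5.50 (day 2) and 10.34 and 9.35 (day 4), and rose in each of these steps (limma, change of 1.95 and then 3.86). The list also held genes that fell. Cdx1 fell by 2.75 by day 2 and was lower by 1.86 on day 4 than on day 0 (limma, adjusted p = 0.0167 and 0.0389). The receptor gene Rarg fell by 1.51 between day 0 and day 4 (adjusted p = 0.00352). On day 4, where Crabp1, Crabp2 and Cyp26b1 were at or near their highest levels, Stra8 was near its lowest. Whether these changes are linked was not tested. Calls of listed genes other than the 10 rest on few libraries: when each library was left out in turn, 0 of 51 such calls from day 0 to day 2 and 6 of 88 from day 0 to day 4 held in every fit, and 17 of 26 from day 4 to day 6 held in none, while all kept their sign.

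Sycp1 and Sycp3 encode the transverse filament and a lateral element of the synaptonemal complex, which joins paired chromosomes in meiosis. Sycp1 lies at chr3:102818499-102936100 on the minus strand and overlaps 3 pseudogenes on the other strand. Its level was 4.99 and 4.76 (day 0), 4.98 and 6.19 (day 2), 5.15 and 4.94 (day 4) and 5.15 (day 6). Apart from 1 day 2 library all values lay close together, and the day 4 change was 0.17 against day 0 (limma, adjusted p = 0.832) with no call over all days (adjusted p = 0.575). Sycp3 lies at chr10:88459569-88473236 on the plus strand and overlaps Chpt1 on the other strand. The strand setting of the counting was not given in the sources used here, and reads of overlapping genes on opposite strands may be mixed in these values.

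Sycp3 was at 6.19 and 5.50 (day 0), 6.57 and 7.43 (day 2), 6.50 and 7.14 (day 4) and 5.51 (day 6). The libraries of days 2 and 4 lay above those of days 0 and 6. The change from day 0 was 1.16 by day 2 and 0.97 by day 4 (limma, adjusted p = 0.117 and 0.138). Neither of the synaptonemal complex genes among the 10 was lower on day 4 than on day 0.

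Dazl encodes an RNA-binding protein that germ cells need to become competent for meiosis. It lies at chr17:50279395-50293636 on the minus strand. Its level was 4.59 and 5.07 (day 0), 5.86 and 6.14 (day 2), 4.97 and 3.75 (day 4) and 3.88 (day 6). Day 2 stood above all other days, and the 2 libraries of day 4 were far apart, 1 within the day 0 range and 1 under it. The change was 1.17 from day 0 to day 2 (limma, adjusted p = 0.162) and -1.64 from day 2 to day 4 (adjusted p = 0.105).

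Ddx4, also called Vasa, encodes an RNA helicase of the germ granules that is widely used as a germ cell marker. It lies at chr13:112598333-112652475 on the minus strand. Its level was 6.19 and 5.90 (day 0), 6.09 and 6.72 (day 2), 3.98 and 5.02 (day 4) and 3.51 (day 6). Both day 4 libraries were under all 4 of days 0 and 2, and day 6 was lower still. Between day 0 and day 4 it fell by 1.55 with a standard error of 0.42, 2.92-fold (limma, adjusted p = 0.0426), and against day 2 the change was -1.91 (adjusted p = 0.0631). The call against day 0 was lost without any 1 of the 6 libraries of days 0, 2 and 4, at changes of -2.07 to -1.03 and adjusted p-values of 0.0651 to 0.327.

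Mael encodes a protein of the piRNA pathway, which silences transposons in germ cells. It lies at chr1:166201201-166238747 on the minus strand. Levels were 5.42 and 4.85 (day 0), 5.88 and 6.57 (day 2), 3.75 and 4.85 (day 4) and 3.19 (day 6). It had the order of days that Ddx4 had, with replicate 2 above replicate 1 on both day 2 and day 4 in both genes. The change from day 2 to day 4 was -1.93 (limma, adjusted p = 0.0796) and from day 0 it was -0.84 (adjusted p = 0.283), while over all days the difference passed (limma F test, adjusted p = 0.0291).

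The promoters of Ddx4, Mael, Sycp1 and Sycp3 are shown because they hold motifs that the choice of the 10 genes did not use. RefSeq promoters (GRCm38.p6, 250 bases before to 50 after the start) were matched by symbol for 8 of the 10 genes (9 promoters, since Kit has 2), and Tfap2c and Dppa3 were not among them. Capitals mark CACGTG, an E-box of the kind that Mga and Max bind, and TCCCGC or its reverse complement, a core of E2F6-type sites. Ddx4 was printed because it fell by day 4, and the 3 others were chosen after their values were seen, because they hold both motifs.
Ddx4 (chr13:112652261-112652560, minus strand): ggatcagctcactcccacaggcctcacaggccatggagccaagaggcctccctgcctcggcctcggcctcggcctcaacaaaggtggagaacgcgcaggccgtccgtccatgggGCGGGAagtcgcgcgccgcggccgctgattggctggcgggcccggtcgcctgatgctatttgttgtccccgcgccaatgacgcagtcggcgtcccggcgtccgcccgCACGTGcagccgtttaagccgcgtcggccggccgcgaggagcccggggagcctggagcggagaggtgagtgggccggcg
Mael (chr1:166238695-166238994, minus strand): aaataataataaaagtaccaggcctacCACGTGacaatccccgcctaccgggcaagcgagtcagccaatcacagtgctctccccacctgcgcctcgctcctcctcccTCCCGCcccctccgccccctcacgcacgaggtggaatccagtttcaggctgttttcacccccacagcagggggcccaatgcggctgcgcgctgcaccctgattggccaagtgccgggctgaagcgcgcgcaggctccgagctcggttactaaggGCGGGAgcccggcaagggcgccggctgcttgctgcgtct
Sycp1 (chr3:102936051-102936350, minus strand): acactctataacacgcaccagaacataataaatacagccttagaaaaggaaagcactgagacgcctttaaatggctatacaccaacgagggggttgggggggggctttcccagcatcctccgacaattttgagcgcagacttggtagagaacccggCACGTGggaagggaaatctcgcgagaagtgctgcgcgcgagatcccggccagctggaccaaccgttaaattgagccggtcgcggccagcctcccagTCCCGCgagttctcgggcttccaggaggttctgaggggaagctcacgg
Sycp3 (chr10:88459337-88459636, plus strand): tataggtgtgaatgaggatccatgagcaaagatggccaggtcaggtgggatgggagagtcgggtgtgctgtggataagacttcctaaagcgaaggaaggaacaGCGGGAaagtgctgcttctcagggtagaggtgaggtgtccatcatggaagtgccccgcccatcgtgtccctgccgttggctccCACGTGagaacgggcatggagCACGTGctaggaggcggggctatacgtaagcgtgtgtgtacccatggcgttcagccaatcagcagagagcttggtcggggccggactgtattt

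Both strands were searched, and the motifs do not overlap one another in these windows. Ddx4 has the E-box 29 bases before the start and the E2F6-type motif 136 bases before it. Mael has an E-box 223 bases before the start and E2F6-type motifs 143 bases before and 11 bases after it, and Sycp1 has its E-box 94 bases before and its E2F6-type motif 2 bases after the start. Sycp3 has E-boxes 64 and 43 bases before the start and an E2F6-type motif 147 bases before it. Thus 4 of the 9 promoters, from 4 of 8 genes, hold both motifs, where 7.15% of 32851 RefSeq mouse promoters of this length hold the E-box, 20.0% the E2F6-type motif and 1.99% both. Some of these starts lie inside the GENCODE gene, so the windows can miss the start that GENCODE gives. The RefSeq start is 165 bases inside the gene for Ddx4, 785 for Stra8 and 8665 for Nanos3, and at most 75 for the others. The gene covers 215 of the 300 bases of the Ddx4 window and all 300 of those of Stra8 and Nanos3.

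CG dinucleotides, the sites of DNA methylation, were also counted in the 4 promoters. There were 38 in Ddx4, 24 in Mael, 21 in Sycp1 and 15 in Sycp3, against a median of 7 and quartiles of 3 and 20 over all promoters. Sycp3 thus lay within the quartiles and the other genes above them. Dazl has 28 CG dinucleotides and neither motif in this window. Stra8 has 10 and Nanos3 has 3, with neither motif in windows that lie within the gene, and Kit has 20 or 21 in its 2 RefSeq promoters, with the E2F6-type motif alone. A match is a description of letters and not of binding. Both motifs contain a CG dinucleotide, and the shares over all promoters were not matched for the number of CG dinucleotides. The share of promoters with both motifs can therefore not be told apart from CG content. For the 4 genes with both motifs, the change from day 0 to day 4 was -1.55 (Ddx4), -0.84 (Mael), 0.17 (Sycp1) and 0.97 (Sycp3), with a call for Ddx4 alone. In the same order it was -1.91, -1.93, -0.54 and -0.18 from day 2 to day 4, without a call. Whether the motifs have a part in these changes was not tested.

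Set side by side, all of the 10 genes but Tfap2c had a day 2 mean above that of day 0. Stra8 was the 1 gene that passed (limma), where 5.76% of all genes tested rose and 6.2% fell. In 7 of the 10 both day 2 libraries were above both of day 0 and in 0 both were below, shares that were 28.6% and 21.6% over all genes. The median change of the 10 was 0.96, against 0.05 over all genes. The genes that were higher in both libraries without a call were Dppa3, Dazl, Mael, Sycp3, Nanos3 and Kit.

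Between day 2 and day 4 the fitted change was negative for 9 of the 10 genes, against 46.8% of all genes, with a median of -1.77 against 0. By the test 2 fell and 0 rose (limma), where 2.13% of all genes fell and 1.45% rose. Both day 4 libraries were below both of day 2 in 7 genes and above in 1, Kit, where these shares were 22% and 20.9% over all genes. With a filter on low values 5 of the 10 fell, the further ones being Dppa3, Ddx4 and Mael (limma, adjusted p = 0.0359, 0.0228 and 0.0330), where 5.91% of the 14484 genes then tested fell. Leaving out any 1 of the 6 libraries of days 0, 2 and 4 left 0 genes of the whole table past the threshold in this comparison (limma, 3511 to 5139 genes at an unadjusted p under 0.05), so no call from day 2 to day 4 given here held in those fits.

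Against day 0, the day 4 change was negative for 7 of the 10 genes, with a median of -0.62 against 0 over all genes. Tfap2c and Ddx4 fell and 0 rose, where 10.4% of all genes fell and 11.3% rose. The libraries did not overlap in 5 genes that were lower, Tfap2c, Ddx4, Mael, Nanos3 and Stra8, and in 2 that were higher, Sycp3 and Kit, where 26.9% and 30.4% of all genes did so. The change of Tfap2c was the largest of the 10 in size. Comparisons with a day in common share its libraries and are not independent.

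From day 4 to day 6 the change was negative for 8 of the 10 genes, with a median of -0.58 against 0. Tfap2c rose and 0 fell, where 1.27% of all genes rose and 3.18% fell. The rise of Tfap2c missed the threshold without any 1 of the libraries of days 0, 2 and 4 (limma, adjusted p = 0.0649 to 0.168). Day 6 has 1 library, whose spread is taken to be that of the other days. Over all days together 5 of the 10 genes differed (Tfap2c, Stra8, Ddx4, Dppa3 and Mael), where 28.6% of all genes did. Without 1 library of days 0, 2 or 4, 0 to 2 of the 10 passed this test, and Dppa3, Ddx4 and Mael passed in none of these fits (limma).

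**Figure D3:**
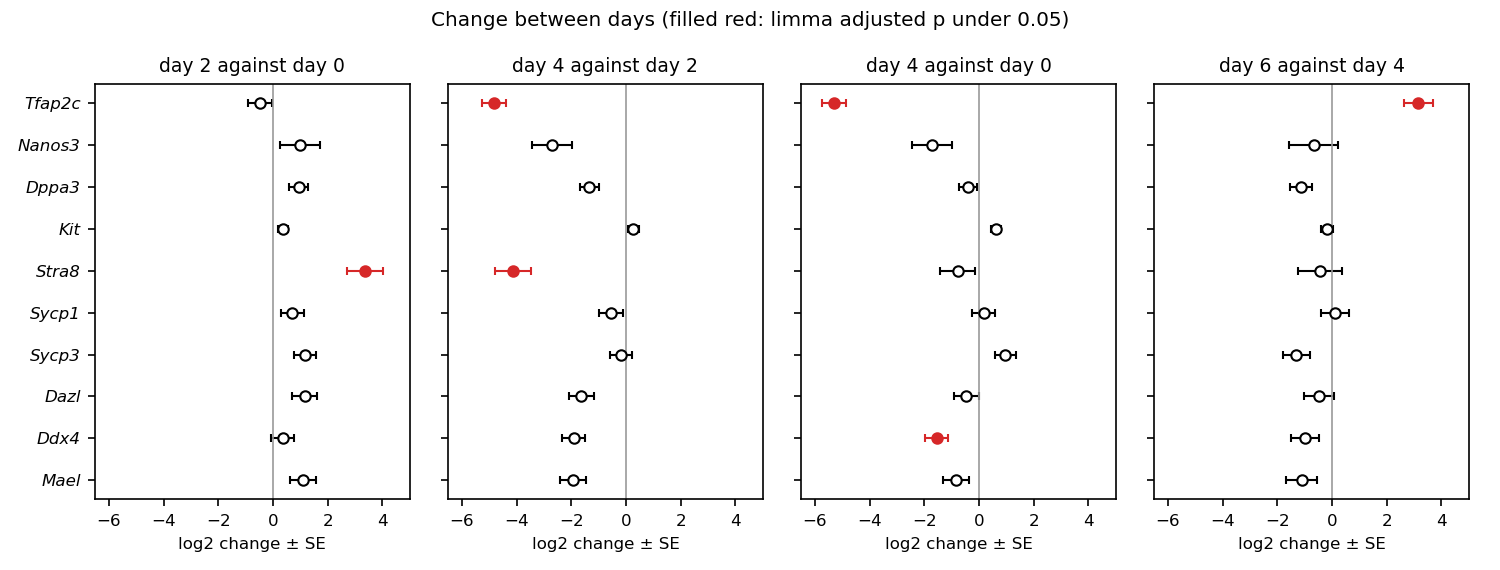
Log2 change of the 10 genes in 4 comparisons of days, with the limma standard error as bars and filled red points for an adjusted p under 0.05. Tfap2c was at -4.83 and -5.31 in the comparisons of day 4 with days 2 and 0 and at 3.16 from day 4 to day 6.

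The genes whose levels were most like those of a called member over the 7 libraries were sought among 11800 genes with enough reads, as a description. For Tfap2c they were Hps5 (Pearson r = 0.990), Gm4631 (0.987) and Pias2 (0.986). Hps5 went from 6.74 and 6.62 on day 0 to 5.26 and 5.25 on day 4 and 6.06 on day 6, a far smaller range than that of Tfap2c. For Stra8 the nearest were Prune (0.988), Nudt19 (0.973) and Dctd (0.969), all highest on day 2. For Ddx4 they were Cdk5rap1 (0.998), Mctp2 (0.997) and Mina (0.993). These values describe the 7 libraries, which share the order of days, and carry no test.

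Other genes of germ cell specification were given from a list of 20, which holds Tfap2c, Nanos3, Dppa3 and Kit. Apart from these 4, 2 rose and 2 fell between day 0 and day 2, and 2 rose and 6 fell between day 0 and day 4. The shares of all genes that rose or fell, given above for each comparison, are the background for this and every later list. Ifitm3, an interferon-induced membrane protein that marks early germ cells, fell by 3.69 by day 4, from 9.79 and 10.30 to 6.26 and 6.43 (limma, adjusted p = 0.000347). Itgb3, an integrin found on primordial germ cell-like cells, fell by 3.72, from 6.91 and 7.16 to 3.41 and 3.22, a call that held in each of 7 fits without 1 library. Feeder fibroblasts can express both. Prdm14, named after its values were seen for its role beside Tfap2c, fell by 1.90 from 5.47 and 5.02 to 3.61 and 3.08 (limma, adjusted p = 0.0137). Prdm1 had day 0 levels of 5.94 and 5.56 and day 4 levels of 6.01 and 5.43 (adjusted p = 0.986).

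Among 12 regulators of meiotic entry, Stra8 was the 1 that passed between day 0 and day 2. By day 4, Meioc, a meiosis regulator listed under its older symbol Gm1564, fell by 1.59 from day 0 and by 2.27 from day 2 (limma, adjusted p = 0.0277 and 0.0329). Its level was 5.94 and 5.39 (day 0), 6.11 and 6.56 (day 2) and 3.69 and 4.45 (day 4). Dmrt1, a transcription factor of the germ line and testis, fell by 1.91 from day 2 to day 4 (adjusted p = 0.0347). It was at 6.07 and 6.11, then 7.72 and 6.98, then 5.73 and 5.15, so that day 2 was its high point as well.

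The synaptonemal complex and meiotic cohesin list had 14 genes tested, and Syce1, a central element protein, was the 1 that passed. It fell by 3.28 from day 0 to day 4, from 5.47 and 5.70 to 1.83 and 2.78 (limma), and was listed at 0 on day 6. Sycp1 and Sycp3 did not share this course. Among 20 genes of meiotic recombination, Dmc1, the meiotic strand exchange protein, rose from 3.63 and 3.19 on day 0 to 5.38 and 5.89 on day 2, and Rec114, a partner of the break-forming machinery, rose from 1.79 and 1.90 to 4.07 and 4.66 (limma, changes of 2.23 and 2.52). Msh5, a protein of crossover formation, was the 1 gene of the list that fell by day 2. It was at 2.18 and 1.60 on day 0, the latter under the level of 3 reads, so this call lies near the counting limit. It was listed at 0 in all libraries of days 2 and 4, and was at 3.11 in the day 6 library. By day 4, Dmc1 was higher than on day 0 and 3 genes were lower, Tex11, a meiosis protein encoded on the X chromosome, which fell by 1.95, Mei4, a partner of Rec114, which fell by 1.72, and Msh5. Spo11, which makes the breaks, was under the 3-read level in all 7 libraries and listed at 0 in 4 of them.

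Of 21 genes of the germ granule and piRNA pathway, 3 rose and 4 fell between day 0 and day 4, Ddx4 being 1 of the 4. Tex19.1, a germ line protein that restrains transposons, fell by 2.18, from 7.90 and 7.54 to 5.31 and 5.77. Rnf17, a component of germ cell granules, fell by 1.90, from 7.97 and 7.91 to 5.89 and 6.20. Tdrd9, a helicase of the pathway, was listed at 0 in all 4 libraries of days 0 and 2 and at 2.64 and 1.94 on day 4. The pathway thus held genes that moved in both directions.

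**Figure D4:**
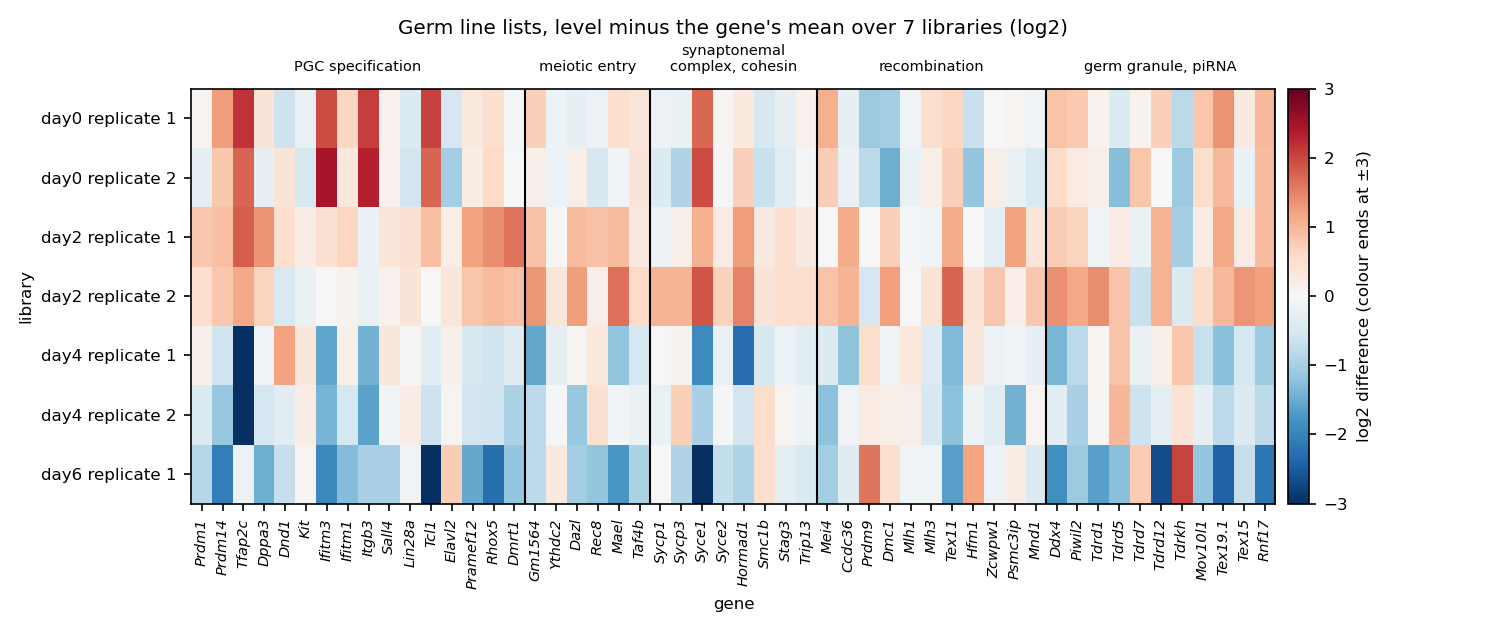
Level of 52 genes of 5 germ line lists minus the mean of the gene over the 7 libraries (log2), with 1 column per gene and 1 row per library (PGC, primordial germ cell). Genes with a mean of at least 10 scaled reads are shown, and a gene of several lists is drawn once. Tfap2c, Ifitm3, Itgb3 and Syce1 are red on day 0 and blue on day 4, while Sycp1 and Sycp3 are paler.

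Known repressors of germ line genes were examined as a list of 23. Between day 0 and day 2, 8 rose and 1 fell, where 5.76% of all genes rose and 6.2% fell. Between day 0 and day 4, 9 rose and 1 fell, where these shares were 11.3% and 10.4%. From day 4 to day 6, 6 fell and 0 rose, where 3.18% of all genes fell and 1.27% rose. Zbtb16, a zinc finger factor that spermatogonial stem cells also need, had the largest change, from 0.86 and a listed 0 on day 0 to 6.95 and 5.80 on day 2, and 7.41 and 6.85 on day 4 (limma, change of 5.95 and then 6.70 against day 0). Ring1, a Polycomb ubiquitin ligase, rose by 2.56 by day 4. The DNA methyltransferase gene Dnmt3b rose from 11.03 and 11.01 to 12.26 and 12.42 on day 2, and Dnmt3a rose from 8.97 and 9.25 to 10.69 and 10.39. Their cofactor Dnmt3l, which is high in naive stem cells and germ cells, fell by 3.94 by day 4, from 9.16 and 9.80 to 5.47 and 5.61. Of the repressor complex, chosen after its values were seen, Mga rose by 0.70, Pcgf6 by 0.73 and E2f6 by 0.61 between day 0 and day 2 (limma). Max went from 8.21 and 8.32 to 8.32 and 7.99 and L3mbtl2 from 8.88 and 8.93 to 9.05 and 8.70, neither with a call, and L3mbtl2 fell by 1.51 from day 4 to day 6. The rises came on the day on which 9 of the 10 germ line genes had means above those of day 0, and what they have to do with each other was not tested.

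Genes that respond to BMP signals were also listed, since Noggin was added from day 2. Of 11, 3 fell between day 0 and day 2, before Noggin, among them Id1, a classic target, which fell by 2.71 from 7.13 and 7.28 to 4.65 and 4.34. Between day 2 and day 4, Bmp2, a ligand gene, was the 1 that passed, and it rose by 2.09. Between day 0 and day 4, Smad7, an inhibitor of the pathway that it also induces, fell by 2.65 and the ligand gene Bmp4 fell by 2.54.

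Markers of other cells moved with the days. The summed level of 12 feeder fibroblast markers was 15.18 and 15.40 on day 0, 11.80 to 12.28 on day 2, 11.43 to 11.44 on day 4 and 10.93 on day 6, with all 12 lower on day 4 than on day 0 by the test and 0 of the 12 listed at 0 in any library. The summed level of 12 pluripotency markers was 14.04 and 13.83 on day 0, 13.45 and 13.28 on day 2, 12.36 on day 4 in both libraries and 11.08 on day 6, and 10 of 12 fell by day 4. Their part in the changes of Tfap2c, Ddx4 and the other germ line genes was not tested. Of 8 genes listed as markers of established germ cells, 3 of which (Ddx4, Nanos3 and Sycp1) are among the 10 genes, 5 to 7 were above the 3-read level in each library of days 0, 2 and 4, and Nanos2 was listed at 0 in 4 of the 7 libraries. Of 10 blood and mast cell markers, which could carry Kit, 3 to 5 were above the 3-read level and Cpa3 and Mcpt4 were listed at 0 in all libraries of days 2, 4 and 6. By day 4, 4 of them fell (Runx1, Cd34, Ptprc and Spi1) and 0 rose by the test. Spi1 was under the level of 3 reads on day 0 already. Tal1 went the other way without a call, from 1.81 and 3.19 on day 0 to 4.52 and 3.36 on day 4 and 5.49 on day 6. Whether such cells carried Kit was not tested. Of 8 trophoblast markers, a list that holds Tfap2c, 4 to 7 were above the 3-read level, and 1 fell by day 4, which was Tfap2c. Of 9 melanocyte and neural crest markers, 1 fell by day 4, and Tyrp1 was listed at 0 in all libraries from day 2 on.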

How the data were processed

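Libraries of polyadenylated RNA (7) were prepared for strand-specific sequencing, per the labels' protocols. The submitters' processing notes name build GRCm38, while aligner, counter and strand setting were not given in the sources used here. Values as deposited are the natural log of 1 plus scaled reads, a unit inferred from the table, with libraries already brought to 1 distribution. They were divided by the natural log of 2. Between 16611 and 18211 genes were above 0 per library. Of 30590 rows, 8674 at 0 throughout and 103 of foreign sequence were left out. In R 4.3.3, limma 3.58.1 was fitted with one mean per day, trend and robust moderation, after a check on simulated data. The 10 genes, the lists and the tests were chosen with earlier results of these data known. Genes named from a list come from the 3 called genes with the largest change per comparison, not all of which are given, unless marked as chosen later. All genes of the Tfap2, Kit and Dppa3 lists and the 3 genes most like each called member were named. Of the lists, Six6os1, Top6bl, Ankrd31 and Gcna were not matched. Meiosin had a row under its older symbol Gm4969 alone, at 1.26 or lower and under the level of 3 reads in every library. Replicate numbers were not taken to pair libraries. Alternatives were other filters, pseudocounts, fits and leaving out each library.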

Additional observations from a re-analysis of the deposited data

How the results depend on the processing

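For the 10 genes, the number called between day 0 and day 2 went from 1 to 0 with a minimum on the mean level (limma, 4 at an unadjusted p under 0.05, Stra8 not being tested), and to 0 with neither trend nor robust moderation (1 unadjusted). From day 2 to day 4 it went from 2 to 5 with the mean minimum, with the low-value filter and with only the days compared, and to 1 with a pseudocount of 10 or with neither trend nor robust moderation. From day 0 to day 4 it went from 2 to 1 with neither. From day 4 to day 6 it went from 1 to 0 with a pseudocount of 10 (limma, 3 unadjusted) and with neither (1 unadjusted). Over any day it went from 5 to 8 with the low-value filter and to 2 with neither. Leaving out 1 library gave 0 to 1, 0 to 3, 0 to 3, 0 to 0 and 0 to 2 called, in the order above (limma; at least 0, 4, 1, 1 and 3 at an unadjusted p under 0.05). Changes that turned sign, none of them called, were Sycp1 from day 2 to day 4 (-1.14 to 0.07 over these fits, positive without day 2 replicate 2), Sycp3 in the same comparison (-0.62 to 0.25, positive without day 2 replicate 2 and, at 0.13, without day 4 replicate 1), Dazl from day 4 to day 6 (-1.09 to 0.13, positive without day 4 replicate 1) and Dazl from day 0 to day 4 (-1.08 to 0.14, positive without day 4 replicate 2). The cause was not tested. Deviations of libraries with the same replicate number correlated at -0.058, -0.066 and 0.222 between pairs of days, so the numbers were not taken as pairs. With a replicate block the counts were 1, 3, 3, 1 and 5, Dppa3 being added from day 2 to day 4 and Kit from day 0 to day 4 (adjusted p = 0.0386).

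Levels under that of 3 reads limit Nanos3, and Tfap2c and Stra8 on day 4.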

Other observations

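Genes of oocytes and eggs also changed. Of 15 tested, 3 fell between day 0 and day 4 (limma). Khdc3 and Ooep belong to the maternal complex of the egg. Khdc3 fell by 2.73, from 4.93 and 5.0 to 3.11 and 1.34. Ooep fell by 2.50, from 7.17 and 7.0 to 4.82 and 4.34. Zp3, a protein of the egg coat, was at 3.60 and 3.42 (day 0), at 4.17 and 4.07 (day 2), and listed at 0 and at 0.86 on day 4. Sohlh2, a transcription factor of early oocytes and spermatogonia, rose from 5.07 and 5.02 to 7.16 and 6.35 on day 2 (limma, change of 1.71) and was at 5.18 and 4.58 on day 4, the order of days that Dazl and Mael had.

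Genes that mark rare stem cells resembling the 2-cell embryo fell in 8 of 9 cases between day 0 and day 4. Zscan4c had levels of 8.32 and 9.38 (day 0), 6.73 and 6.62 (day 2) and 0.85 and 2.32 (day 4), and was listed at 0 on day 6.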
